A study of Mus musculus with 2 samples.

Results

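The cornified envelope and late differentiation genes examined here were Lor, Ivl, Lce1m, Cnfn, Crct1, Sbsn and Asprv1, chosen by name as the 7 of the 379 genes of the panel. Every decoded transcript of these genes with a quality score of at least 20 was used, which gave 909552 transcripts in the SspA+HDM section and 187984 in the mock section. Dorsal skin of C57BL/6 mice had been shaved and depilated. It then received SspA and HDM through the skin surface, or PBS in the same way as the mock treatment, and was taken at day 7. Each treatment was represented by 1 section, 5 µm thick and cut from a formalin-fixed, paraffin-embedded block, and read with Xenium In Situ, an imaging assay that records the position of each probe-bound transcript in place. The labels give neither the age or sex of the mice nor how many mice a section came from.

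Each section held 2 tissue strips, which are parts of that section and not replicates. The SspA+HDM section had 8124205 gene transcripts at this quality in and around 46142 segmented cells, with a median of 121 per cell, and the mock section had 2461475 in and around 15932 cells, with a median of 103. The strips measured 7.55 and 7.55 mm in the SspA+HDM section and 6.67 and 7.04 mm in the mock section. With 1 section per treatment no test was possible, and every interval below is an exact 95% interval that covers counting error only. A sum over a section cannot tell fewer cells from less RNA per cell. No cell identifier occurred in both sections.

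Keratinocytes of the epidermis divide in the basal layer, move outward, and in the outermost living layer cross-link a protein shell, the cornified envelope, beneath the plasma membrane before they die and become the stratum corneum. Involucrin (Ivl) is laid down early as a scaffold of this shell, loricrin (Lor) is its most abundant late component, and late cornified envelope proteins such as Lce1m and cornifelin (Cnfn) are added to it. Crct1 is a small cysteine-rich gene of the same gene cluster as Lor, Ivl and the Lce family, the epidermal differentiation complex. Suprabasin (Sbsn) is a secreted protein of keratinocytes above the basal layer, and Asprv1 encodes an aspartic protease that processes profilaggrin. In the mouse genome annotation (RefSeq, assembly GRCm38.p6), Lor, Ivl, Lce1m and Crct1 lie on chromosome 3, where Crct1 and Lce1m are direct neighbours. Cnfn and Sbsn lie on chromosome 7, and Asprv1 on chromosome 6.

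The 250 bases upstream of the start of 4 of the genes are shown because Lce1m and Cnfn moved furthest apart between the sections, and Lor and Ivl are the envelope genes against which they are compared. The sequences are from RefSeq (GRCm38.p6), all 4 genes are on the minus strand, each is written 5′ to 3′ along its gene, and capitals mark TATAAA and TGANTCA on either strand. TATAAA is the core of a TATA box. TGANTCA allows any base at N, and so takes in the AP-1 sites TGAGTCA and TGACTCA as well as other letters.
Lor, chr3:92083143-92083392: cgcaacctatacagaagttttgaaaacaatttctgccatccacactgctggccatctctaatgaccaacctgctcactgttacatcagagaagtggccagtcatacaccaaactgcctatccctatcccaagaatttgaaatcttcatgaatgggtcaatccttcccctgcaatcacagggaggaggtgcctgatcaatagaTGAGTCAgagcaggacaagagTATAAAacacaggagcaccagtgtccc
Ivl, chr3:92573736-92573985: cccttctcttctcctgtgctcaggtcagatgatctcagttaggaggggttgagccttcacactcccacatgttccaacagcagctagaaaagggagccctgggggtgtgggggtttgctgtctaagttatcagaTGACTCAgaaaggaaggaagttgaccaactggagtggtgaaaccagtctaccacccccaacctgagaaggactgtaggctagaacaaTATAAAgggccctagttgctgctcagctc
Lce1m, chr3:93019062-93019311: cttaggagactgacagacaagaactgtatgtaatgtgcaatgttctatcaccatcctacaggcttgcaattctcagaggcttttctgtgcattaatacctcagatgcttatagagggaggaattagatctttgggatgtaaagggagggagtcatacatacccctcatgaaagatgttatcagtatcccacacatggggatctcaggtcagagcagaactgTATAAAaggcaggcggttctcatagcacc
Cnfn, chr7:25369725-25369974: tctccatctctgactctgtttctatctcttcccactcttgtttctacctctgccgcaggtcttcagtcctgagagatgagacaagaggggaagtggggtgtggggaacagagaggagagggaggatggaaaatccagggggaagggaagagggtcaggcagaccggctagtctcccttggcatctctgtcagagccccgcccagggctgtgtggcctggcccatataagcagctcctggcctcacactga
TATAAA was found 27 bases before the start in Lor and 29 bases before it in both Ivl and Lce1m, the 3 envelope genes of chromosome 3 with a window. It occurred anywhere in 12.4% of all 32851 windows of this length, and 20 to 40 bases before the start in 2.50% of them. TGANTCA lay 48 bases before the start in Lor (TGAGTCA), 116 in Ivl (TGACTCA) and 119 in Sbsn (TGAATCA), and occurred in 6.75% of all windows. The Sbsn match is thus outside those AP-1 sites, and the share of windows counts any base at N. Of the 6 members with a window, 3 held each motif, and neither motif was found in the windows of Cnfn or Asprv1. The matches describe these letters only.

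Over the whole section, Lce1m was the member that was lower after SspA+HDM, and Cnfn was the member that was far higher. Levels are given as CPM, the transcripts of a gene scaled to all panel transcripts inside cells, a scale that serves to compare sections and not genes. Lce1m had 376 and 398 CPM in the 2 SspA+HDM strips, against 2655 and 2838 CPM in the 2 mock strips. Cnfn had 3936 and 4417 CPM in the SspA+HDM strips, against 309 and 449 CPM in the mock strips. For both genes the strips of the same section differed by far less than the sections did. The CPM of Lce1m was 7.09-fold lower in the SspA+HDM section (95% interval 6.79 to 7.40), the fifth lowest ratio of the 346 genes with at least 100 transcripts. The CPM of Cnfn was 10.97-fold higher (10.3 to 11.7), the tenth highest ratio of the same genes.

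The other 5 members were between these extremes. Ivl had 10832 and 10639.6 CPM in the SspA+HDM strips, against 5291 and 5672 CPM in the mock strips. Crct1 had 11192 and 11694 CPM in the SspA+HDM strips, against 5652 and 6377 CPM in the mock strips, and Asprv1 had 20749.8 and 20619 CPM, against 11151 and 11400.5 CPM. These 3 genes had ratios of 1.95 (Ivl), 1.90 (Crct1) and 1.83 (Asprv1). Lor had 11222 and 12175 CPM in the SspA+HDM strips, against 8903 and 9371 CPM in the mock strips. Sbsn had 51544 and 50934 CPM in the SspA+HDM strips, against 41632 and 39606 CPM in the mock strips. The ratios of Lor (1.28) and Sbsn (1.26) depended on the scale: relative to the transcripts of epithelial cells alone, their log2 ratios were -0.11 and -0.14, so that their direction turned.

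**Figure D1:**
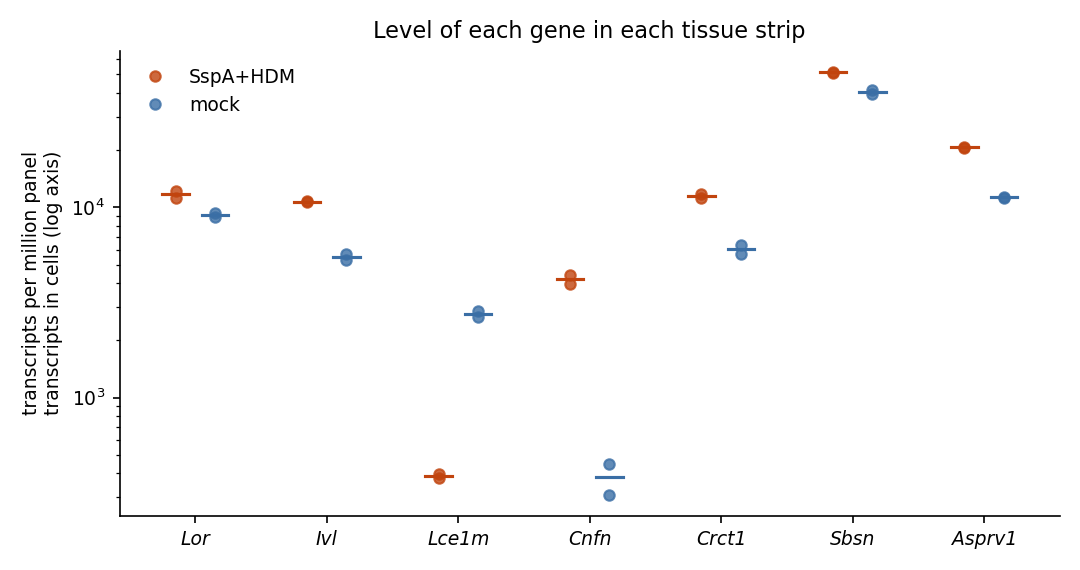
CPM, scaled to all panel transcripts in cells (vertical log axis), for each gene, with SspA+HDM left of mock; points are the 2 strips of each section and the bar is the whole section. Lce1m lies at 376 and 398 in the SspA+HDM strips and at 2655 and 2838 in the mock strips, and Cnfn at 3936 and 4417 and at 309 and 449.

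At a ratio of at least 2, 1 of the 7 members was higher, where 14.7% of the 346 genes were, and 1 of 7 was lower, where 12.7% were. The median log2 ratio of the members was 0.87, beside 0.05 over the 346 genes. Scaled to strip length instead, the SspA+HDM section held more of nearly everything, with a median log2 ratio of 1.68 over the 346 genes. On that scale Cnfn had 2205 transcripts per mm in the SspA+HDM section and 64.9 in the mock section, a ratio of 33.97. Lce1m remained lower, with 204 transcripts per mm in the SspA+HDM section and 467 in the mock section, which was 2.29-fold lower. Lor, Ivl, Crct1, Sbsn and Asprv1 were between 3.91-fold and 6.05-fold higher per mm.

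The quality filter kept a smaller share of Lce1m than of any other member in the SspA+HDM section. It kept 44.6% of the Lce1m rows in the SspA+HDM section and 60.5% in the mock section, and for Cnfn 62.9% and 55.0%. Without any quality filter the log2 ratio was -2.41 for Lce1m and 3.23 for Cnfn, beside -2.83 and 3.46 with the filter. Lce1m belongs to a family of similar genes, and whether its probes also read other Lce transcripts was not tested.

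Other genes listed for epidermal differentiation were mostly near or above their mock level on the scale of all transcripts in cells. The list includes general keratinocyte markers such as Trim29, Dsc3 and Serpinb5. Scaled to epithelial-cell transcripts, the median log2 ratio of the 346 genes was -0.43, beside 0.05 on the scale used here. The listed genes were not read on that other scale. Of 76 genes listed for differentiation, barrier and cornification, 10 were on the panel, 4 were at least 2-fold higher after SspA+HDM, beside 14.7% of all genes, and 0 at least 2-fold lower, beside 12.7%, with a median log2 ratio of 0.77. The highest ratios were those of the cysteine protease inhibitor genes Stfa2l1 (221) and Cstdc4 (89.9) and of the water channel gene Aqp3 (4.37). The lowest were those of Ly6g6c (1.12), of the serpin gene Serpinb5 (1.11) and of the desmosomal cadherin gene Dsc3 (0.920). Of 3 measured activation genes, Krt16, a keratin of stressed epidermis, was 20.7-fold higher. Areg (amphiregulin), a growth factor of keratinocytes, was 4.28-fold higher, while Krt13 was 2.66-fold lower. Among the clusters described below, Krt13 was a leading gene only of some with hair follicle markers. Its ratio is therefore not read as one of the surface epidermis.

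Across the thickness of the epidermis the 7 genes were arranged in an order, which was drawn out over a greater depth in the SspA+HDM section. Depth was measured from a line through the outermost cells, and the layer was taken from 20 µm outside that line down to the local border with non-epithelial cells. The median border was at 69.6 and 73.1 µm in the SspA+HDM strips and at 35.8 and 37.0 µm in the mock strips. In the SspA+HDM section the median depths were -2.17 µm for Lce1m, 3.78 µm for Crct1, 5.87 µm for Lor, 6.35 µm for Cnfn, 11.7 µm for Asprv1, 18.01 µm for Ivl and 22.3 µm for Sbsn. In the mock section they were 5.36 µm for Lce1m, 5.60 µm for Cnfn, 5.63 µm for Crct1, 6.39 µm for Lor, 6.44 µm for Asprv1, 8.13 µm for Ivl and 9.17 µm for Sbsn. In both sections Lce1m was outermost and Ivl and Sbsn were deepest. As a share of the local layer thickness, the median of Ivl was 0.203 in the SspA+HDM section and 0.205 in the mock section and that of Sbsn 0.274 and 0.238, while that of Lor was 0.071 and 0.167. These shares depend on the line, a percentile of cell positions. Such a line leaves more cells outside it where a section has more cells, as the SspA+HDM section had. With the line at the 5th percentile, the median of Lor moved from 5.87 to -2.92 µm in the SspA+HDM section. In the mock section it moved from 6.39 to 0.890 µm. That of Ivl moved from 18.01 to 5.04 µm and from 8.13 to 2.33 µm. The shares were not read with that line, so no shift in relative place between the sections is drawn from them. A negative depth means outside the line through the outermost cells. Of the Lce1m transcripts, 55.9% of those in the SspA+HDM layer and 19.3% of those in the mock layer lay there. At the 5th percentile the median of Lce1m was negative in both sections, at -2.79 µm (SspA+HDM) and -0.418 µm (mock). These shares of Lce1m thus depend on the line as well.

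**Figure D2:**
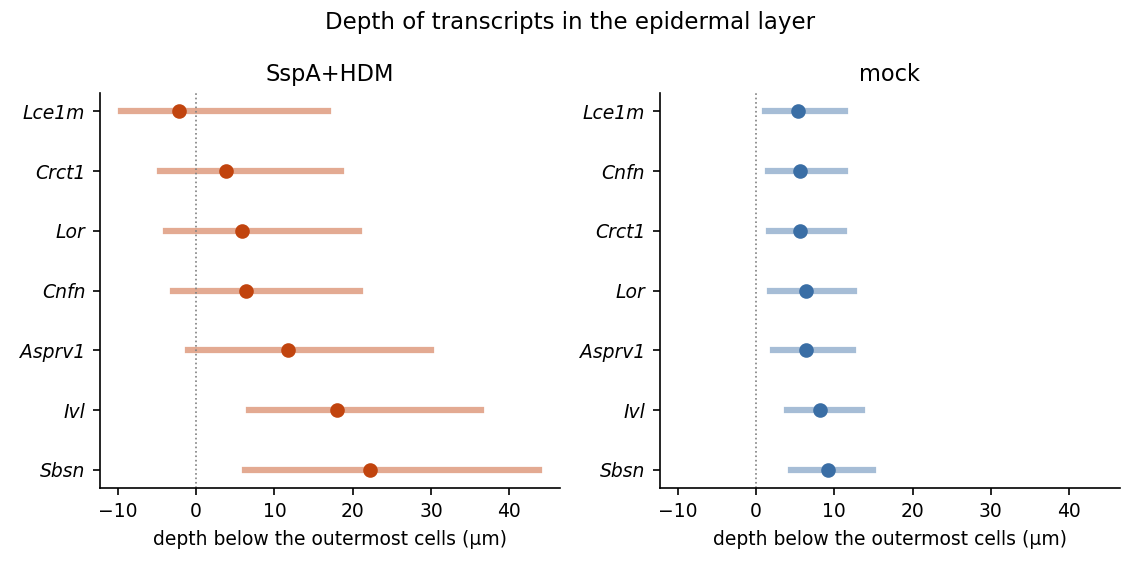
Median (point) and quartiles (bar) of the depth of each gene's transcripts in the epidermal layer, in µm below the outermost cells, with SspA+HDM on the left and mock on the right; genes run from outermost to deepest within each section. The medians span -2.17 to 22.3 µm in the SspA+HDM section and 5.36 to 9.17 µm in the mock section.

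The order was also read bin by bin, over 50-µm bins along the strips with at least 10 transcripts of both genes. In the SspA+HDM section, Lor lay outside Sbsn in 291 of 294 bins, with a median difference of -12.8 µm, and outside Ivl in 281 of 291 bins. Crct1 lay outside Asprv1 in 282 of 291 bins, and Sbsn lay outside Asprv1 in 2 of 295. Lor, Cnfn and Crct1 were thus separated from Asprv1, Ivl and Sbsn along nearly the whole length. Among the 3 themselves the order was less even, since Lor lay outside Cnfn in 108 of 289 bins and outside Crct1 in 52 of 291.

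In the mock section, Lor lay outside Sbsn in 247 of 268 bins, with a median difference of -2.57 µm, and outside Ivl in 203 of 259. Among the outer genes of the mock order, Lor lay outside Asprv1 in 126 of 265 bins and Lce1m outside Crct1 in 116 of 215, so neither pair had a clear order. Asprv1 and Ivl were further apart, with Ivl outside Asprv1 in 51 of 259 bins. For Cnfn only 11 mock bins had enough transcripts to compare it with Lor. The place of Lce1m at the outer end in the SspA+HDM section depended on how the surface was drawn, since with the line at the 5th percentile of cell positions Lce1m, at -2.79 µm, came after Crct1 (-5.07 µm), Cnfn (-3.64 µm) and Lor (-2.92 µm).

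A considerable part of Crct1, Asprv1 and Sbsn lay below the epidermal layer. Below the layer lay 16.5% of the Crct1 transcripts in the SspA+HDM section and 38.8% in the mock section. For Asprv1 the shares were 14.2% and 35.0%, and for Sbsn 18.9% and 31.96%. For Ivl they were 5.27% and 11.4%, for Cnfn 2.66% and 6.62%, for Lor 4.58% and 6.30%, and for Lce1m 4.21% and 2.90%. The deep share was thus largest for Crct1, Asprv1 and Sbsn in both sections, with Ivl between them and the other 3 genes in each section.

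To place the genes in cells, 44282 cells of the SspA+HDM section and 15306 of the mock section with at least 20 transcripts were clustered together, using the panel without the 7 members. Of the 15 listed keratinocyte markers 10 were on the panel, and of the 7 listed hair follicle markers 4 (Lhx2, Sox9, Krt79 and Tbx1). Clusters 2, 4, 6 and 8 had at least 10% keratinocyte-marker transcripts and little follicle signal, and are called surface clusters. Clusters 7, 11, 13, 15, 16, 18 and 24 had at least 5% follicle-marker transcripts and are called follicle-marker clusters. Cluster 12 held both marker sets, and clusters 22 and 25, whose leading genes were T-cell or muscle genes beside keratinocyte genes, were left out of these classes. The rule for the classes was set after the clusters had been seen. Nearly all surface cells of the SspA+HDM section lay in clusters 2, 4 and 8 and nearly all of the mock section in cluster 6, so the classes compare different clusters.

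Within the surface clusters, the opposite ratios of Lce1m and Cnfn were seen again. Lce1m had 856 CPM in 10327 SspA+HDM surface cells and 9909 CPM in 3258 mock surface cells, which was 11.6-fold lower (95% interval 11.07 to 12.1). Cnfn had 9746 CPM in SspA+HDM surface cells and 1318 CPM in mock surface cells, which was 7.40-fold higher (6.90 to 7.94). The ratio was 1.73 for Crct1, 1.60 for Asprv1, 1.32 for Ivl, 0.951 for Sbsn and 0.846 for Lor. Thus 1 of 7 members was at least 2-fold higher, where 16.8% of the 185 genes measured in these cells were, and 1 of 7 at least 2-fold lower, where 47.6% were. The lower level of Lce1m stood among many lower genes in these cells, and the higher level of Cnfn among fewer higher ones.

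The SspA+HDM surface clusters were graded in the members. In cluster 8, the outermost by a median depth of 6.16 µm, Lor had 59276 CPM, Ivl 36693 CPM, Cnfn 21357 CPM and Crct1 52632 CPM. In cluster 4, at 32.7 µm, Lor had 6395 CPM, Ivl 20709 CPM, Cnfn 3192 CPM and Crct1 2557 CPM. In cluster 2, at 49.7 µm, Lor had 1549 CPM, Ivl 2098 CPM, Cnfn 284 CPM and Crct1 557 CPM. Each of the 4 was thus lower in each deeper cluster. In cluster 4 Ivl was still at 56.4% of its level in cluster 8, while Lor was at 10.8% and Cnfn at 14.9%. Sbsn was the most even, with 118797 CPM in cluster 8, 97093 CPM in cluster 4 and 32845 CPM in cluster 2. Lce1m had 2127 CPM in cluster 8, and 17 to 21 transcripts in all in cluster 2 and cluster 4 (24.1 and 17.2 CPM). In cluster 6, which made up nearly all mock surface cells, Lce1m had 10042 CPM and Cnfn 1332 CPM, so the mock level of Lce1m exceeded even the outermost SspA+HDM cluster.

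**Figure D3:**
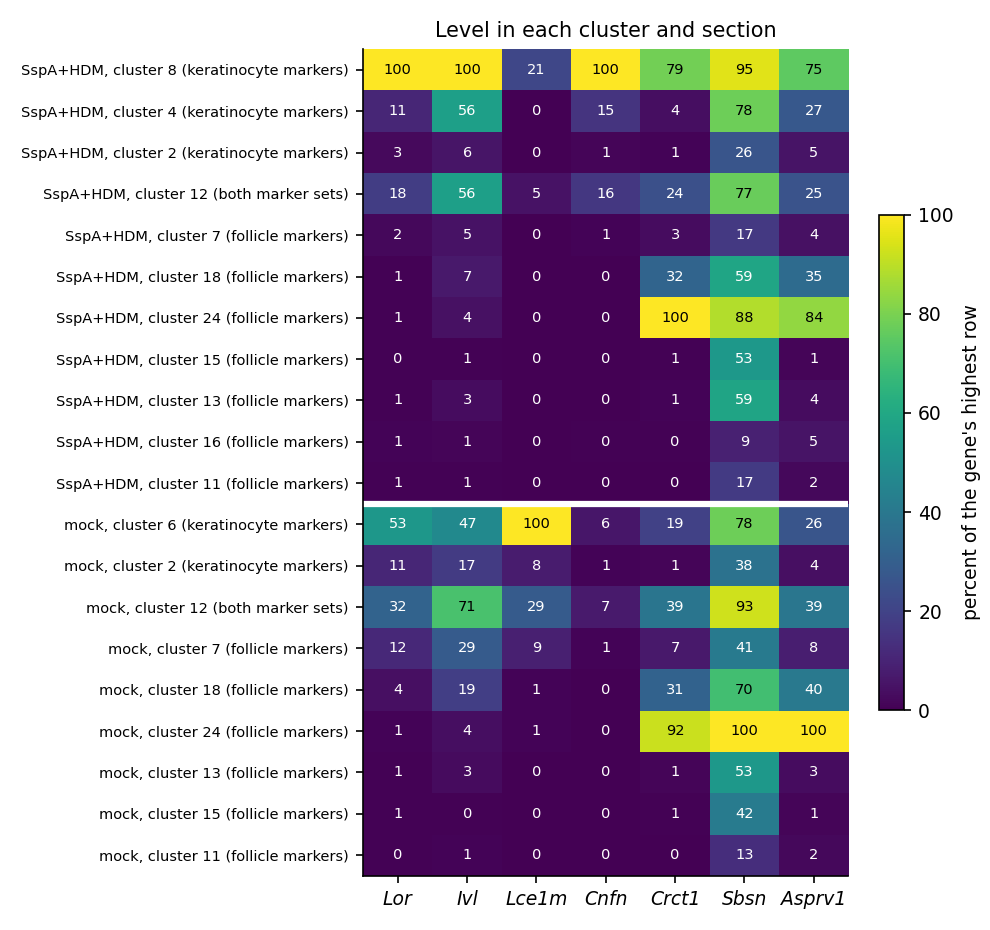
Level of each gene in each cluster and section with at least 50 cells, as percent of that gene's highest row, SspA+HDM rows above mock rows and each ordered by marker class and depth. Lor, Ivl and Cnfn peak in the outermost SspA+HDM cluster 8, Lce1m peaks in mock cluster 6, and Crct1, Sbsn and Asprv1 are high again in clusters 18 and 24.

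Among the follicle-marker clusters, 18 and 24 had the highest levels of Crct1 and Asprv1. Their leading genes included Ly6g6c, Cldn4, the upper follicle keratin gene Krt79 and Cd36, and their median depths were 136 and 139 µm in the SspA+HDM section and 64.7 and 69.7 µm in the mock section. In cluster 24 Crct1 had 67028 CPM in the SspA+HDM section and 61685 CPM in the mock section, a ratio of 1.09. In cluster 18 it had 21561 CPM in the SspA+HDM section and 20985 CPM in the mock section, a ratio of 1.03 whose interval, 0.970 to 1.09, included 1. In cluster 24 Asprv1 had 81965 CPM in the SspA+HDM section and 97670 CPM in the mock section, and Sbsn 110039 and 124509 CPM. Where the surface clusters showed Crct1 at a ratio of 1.73, these clusters held it at nearly equal levels in the 2 sections.

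In the same cells Lor, Cnfn and Lce1m were scarce, and Ivl was found in part of them. Lor had 345 CPM in cluster 24 of the SspA+HDM section and 644 CPM in that of the mock section, and Cnfn had 4 and 0 transcripts. Among 490 cells of clusters 18 and 24 with at least 3 Crct1 transcripts in the SspA+HDM section, 90.8% had no Lor, 98.6% no Cnfn, 71.0% no Ivl and 100% no Lce1m transcript, while 0.612% had no Asprv1 and 0 lacked Sbsn. Among 356 such cells of the mock section, 82.3% had no Lor, 99.7% no Cnfn, 56.5% no Ivl and 98.0% no Lce1m transcript, and 1.40% had no Asprv1. Of 2821 surface cells with at least 3 Crct1 transcripts in the SspA+HDM section, 3.15% had no Lor, 2.84% no Cnfn, 4.89% no Ivl and 76.5% no Lce1m transcript. Of 987 such cells in the mock section, 0.507% had no Lor, 64.8% no Cnfn, 5.37% no Ivl and 11.9% no Lce1m transcript. Cells rich in Crct1 thus nearly always held Lor and Ivl in the surface clusters, while many lacked Lce1m in the SspA+HDM section and Cnfn in the mock section. The median count per cell was 240 and 150 transcripts in clusters 18 and 24, and 428 and 249 in the surface clusters, for SspA+HDM and mock.

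These 2 clusters held 12.3% of all Crct1 transcripts in cells of the SspA+HDM section and 34.0% of those of the mock section. They held 8.98% of the Asprv1 transcripts of the SspA+HDM section and 30.9% of those of the mock section. For Sbsn these shares were 5.81% and 14.5%, against 14.02% and 30.02% over all follicle-marker clusters, so most of the Sbsn of those clusters lay in others of them. For Ivl they were 0.647% and 5.35%, and for Lor 0.105% and 1.18%. They made up 12.4% of the follicle-marker cells of the SspA+HDM section and 26.1% of those of the mock section, and over all follicle-marker clusters the share of Crct1 was 13.3% and 36.7%. Over those clusters together 6 members had at least 100 transcripts in a section. Of these, 1 was at least 2-fold higher, beside 17.6% of 222 genes, and 2 at least 2-fold lower, beside 9.91%. The higher one was Cnfn, with 115 transcripts in the SspA+HDM section and 12 in the mock section, and the lower ones were Lor (2.74-fold) and Ivl (2.98-fold). Cnfn was at 90.0 and 30.2 CPM, beside 108 and 25.7 CPM in non-epithelial cells, so its ratio is not told from that background. Lor was at 630 and 1726 CPM, beside 969 and 840 CPM in non-epithelial cells. Ivl was at 1161 and 3455 CPM, beside 171 and 107 CPM in those cells. Lce1m was too scarce in the follicle-marker clusters, with 21 transcripts in the SspA+HDM section and 64 in the mock section. Cluster 12, which held both marker sets, also had Lce1m 6.05-fold lower and Cnfn 2.29-fold higher.

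Over 45 combinations of cluster and section, the members were alike to different degrees and did not split cleanly into groups. Pearson's r of log2(CPM + 50) with Asprv1 was 0.93 for Crct1, 0.87 for Ivl and 0.86 for Sbsn. It was 0.83 for Lor with Cnfn, 0.81 for Lor with Lce1m and 0.33 for Lce1m with Sbsn. Lce1m with Cnfn was at 0.49, below Ivl with Lor (0.78), Ivl with Cnfn (0.75) and Ivl with Lce1m (0.56). Among the 3 panel genes most like each member were Dnase1l3 (0.90), Calm5 and Calm4 for Lor, Calm5 (0.87) and Areg for Ivl, and Fam25c (0.75), Dnase1l3 and Gm94 for Lce1m. For Cnfn they included Calm5 (0.90), Rbp2 and Calm4, for Crct1 Gm94 (0.87), Ly6g6c and Cldn4, for Sbsn Ly6g6c (0.94) and Anxa8, and for Asprv1 Ly6g6c (0.89) and Gm94. The points include non-epithelial clusters, where the members were low, so r also takes in the contrast between epithelial and other cells. The points share 2 sections and depth differs between clusters, so these values are descriptions.

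Many single surface cells held several of the members. Of the surface cells, 41.4% in the SspA+HDM section and 53.8% in the mock section held at least 5 of the 7 genes. Thinned to 100 transcripts per cell, which left out 836 and 675 shallower cells, the shares were 32.2% and 47.2%. Over all epithelial clusters the shares were 22.4% and 27.0%, and over nuclei alone 13.6% and 6.21%, where the order of the sections turned. All 7 genes were found in 600 SspA+HDM surface cells and in 365 mock surface cells. In the follicle-marker clusters at least 5 genes were found in 0.402% and 2.71% of cells. Among skeletal muscle-like cells (clusters 5 and 10), which should lack all 7, the figure was 0.0483% and 0.0461%, although Sbsn was present in 20.1% and 18.2% and Lor in 6.73% and 5.58% of them, at a median of 269 and 282 transcripts per cell.

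Detection in thinned surface cells followed the levels for Lce1m and Cnfn. Lce1m was found in 3.73% of SspA+HDM and 40.3% of mock surface cells, and Cnfn in 31.9% and 10.4%. In thinned muscle cells Lce1m was found in 0.0270% and 0.0524% and Cnfn in 0.270% and 0.0524%, so both genes stood above this background in the surface cells of both sections. Lor was found in 43.6% of SspA+HDM and 79.6% of mock surface cells, against 2.72% and 2.10% of muscle cells. For Crct1 the shares of cells, 33.1% and 50.3%, and for Ivl, 53.6% and 64.8%, ran against the CPM, and no order is read from them. Unthinned, Lce1m was found in 6.76% of SspA+HDM and 46.4% of mock surface cells, Cnfn in 43.6% and 17.0%, Lor in 54.5% and 79.8%, Ivl in 64.5% and 68.2% and Crct1 in 42.2% and 53.8%.

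Pairs of genes were then read in both directions, and only some were contained in one another. Of the 354 thinned SspA+HDM surface cells with Lce1m, 96.9% also had Lor, 96.9% Crct1, 84.5% Cnfn and 59.3% Ivl, where these genes were found in 43.6%, 33.1%, 31.9% and 53.6% of all such cells. The reverse did not hold: 8.28% of the cells with Lor and 10.9% of those with Crct1 had Lce1m. Of 1041 thinned mock surface cells with Lce1m, 92.7% also had Lor, 74.7% Crct1, 15.9% Cnfn and 75.3% Ivl. In mock cells 47.0% of those with Lor also had Lce1m. Lce1m cells were therefore a small subset of the Lor cells in the SspA+HDM section, and Ivl, at 59.3% against 53.6% of all cells, was hardly more frequent in them than elsewhere.

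The cells of cluster 8, the outermost in the SspA+HDM section, were then described by their Lce1m count. The 2294 cells with 0 Lce1m transcripts had a median depth of 8.11 µm, the 347 with 1 to 2 lay at -0.752 µm and the 315 with 3 or more at -7.84 µm. Across these 3 groups Ivl was at 42064, 26246 and 15609 CPM, and Lor at 51842, 75293 and 86955 CPM. Crct1 was at 43493, 72167 and 86814 CPM, and Cnfn at 19574, 25225 and 27970 CPM. Ivl was thus lower, and Lor, Crct1 and Cnfn higher, the more Lce1m a cell held. Trim29, a gene of the keratinocyte marker list, was at 16999.9, 8619 and 4966 CPM. Chosen after their values were seen, the panel genes with the highest ratio in cells with 3 or more Lce1m transcripts over those with 0 were Il1r2 (9.95), Aif1l (5.27) and Fam25c (3.60), and those with the lowest were Slc5a1 (0.195), Cldn4 (0.198) and Ndrg1 (0.202). The cells also differed in total count, with medians of 403.5, 432 and 482 transcripts.

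Along the strips Lce1m was patchy in the SspA+HDM section. In 500-µm windows it had 16 to 620 transcripts per mm with a median of 198 over 30 SspA+HDM windows, and 174 to 720 with a median of 478 over 27 mock windows. Of the 30 SspA+HDM windows 14 lay below the lowest mock window and 29 below the mock median. In 250-µm windows these were 5 of 60 and 56 of 60. In bins of 50 µm, 65 of 302 SspA+HDM bins and 6 of 273 mock bins had 0 Lce1m transcripts, and the richest 10% of bins held 39.2% of its transcripts in the SspA+HDM section and 22.4% in the mock section. Low Lce1m was therefore widespread along both SspA+HDM strips, with some stretches at the level of the mock strips.

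Cnfn had 608 to 5186 transcripts per mm over the SspA+HDM windows and 22 to 170 over the mock windows, so that all 30 SspA+HDM windows lay above the highest mock window. This was also so for Ivl, Crct1, Sbsn and Asprv1, and for 29 of 30 windows for Lor, on this scale of transcripts per mm, on which nearly all genes were higher. Over the 30 SspA+HDM windows r was 0.90 for Cnfn with Krt16 and 0.84 for Cnfn with Uox, both compared after their values were seen. This was not particular to Cnfn. With Krt16 r was 0.91 for Sbsn, 0.84 for Asprv1, 0.83 for Ivl and 0.78 for Crct1, but 0.49 for Lor and -0.17 for Lce1m. With Uox it was 0.74 for Ivl, 0.71 for Sbsn, 0.61 for Crct1 and 0.58 for Asprv1, but 0.13 for Lor. For Lce1m r was 0.53 with Lor, -0.35 with Uox and 0.05 with Cnfn. In the mock section r was 0.72 for Lce1m with Lor and 0.47 for Lce1m with Cnfn over 27 windows. For Cnfn it was 0.72 with Krt16 there, with a Spearman rho of 0.38. With Uox, which had at most 10 transcripts per mm in a mock window, it was 0.07. Windows of a strip share the section and differ in the number of cells, so these are descriptions of 1 section each.

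**Figure D4:**
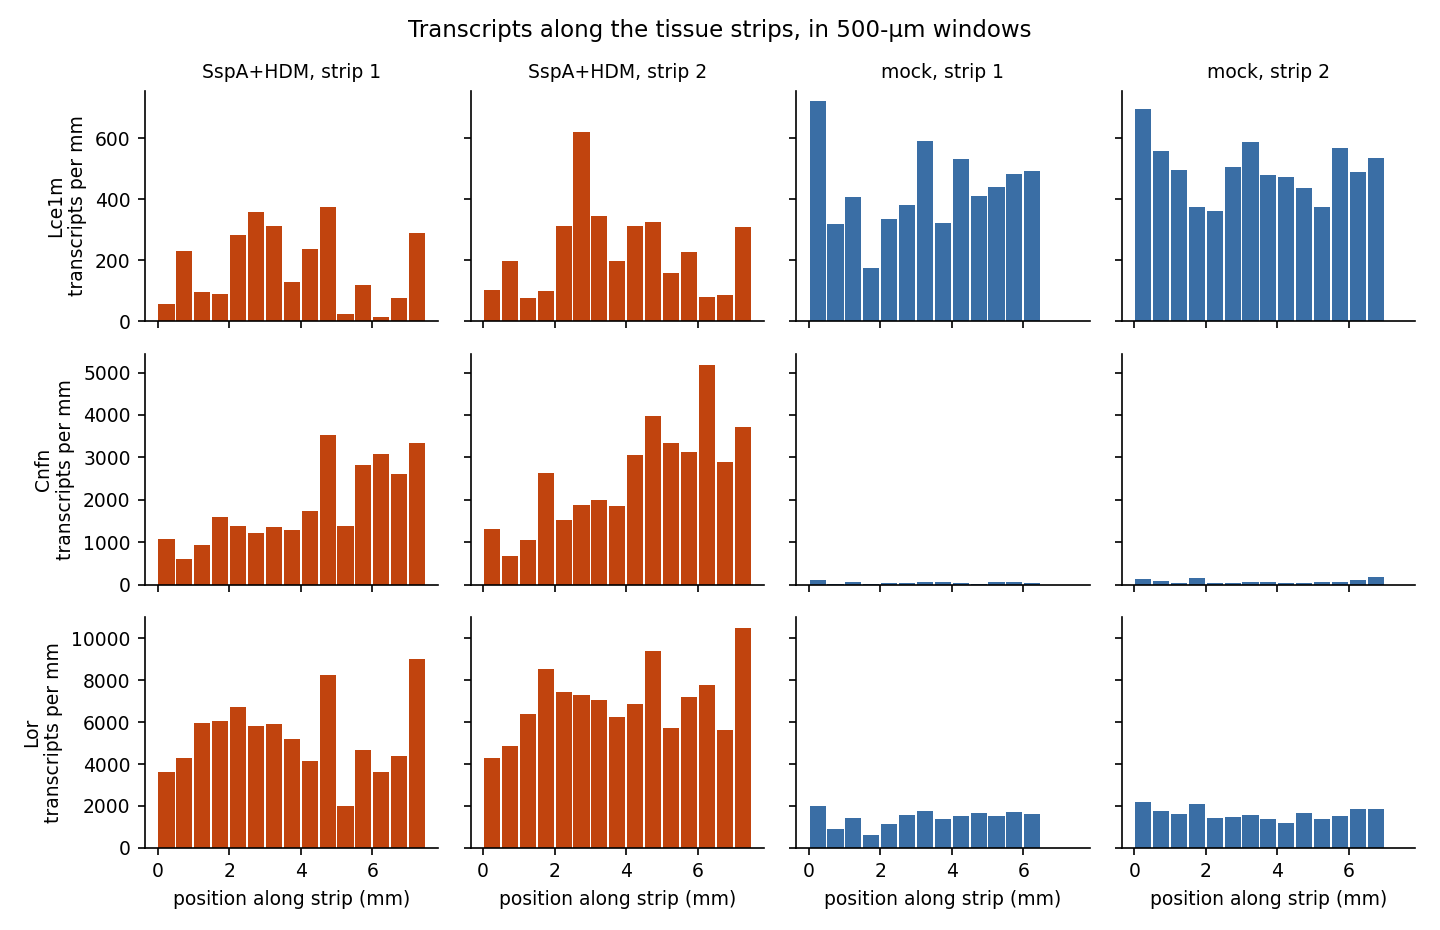
Transcripts per mm of Lce1m, Cnfn and Lor (rows, vertical axes from 0) along each strip (columns, SspA+HDM on the left), with a bar for each 500-µm window. Lce1m runs from 16 to 620 in the SspA+HDM strips and from 174 to 720 in the mock strips, while every SspA+HDM window of Cnfn, at 608 or more, lies above the mock maximum of 170.

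Part of the transcripts lay outside every cell outline, and Lor more than any other member. Outside outlines were 11.4% of the Lor transcripts of the SspA+HDM section and 17.3% of those of the mock section, the third highest share of 346 genes and the fifth highest of 264. The median gene had 1.16% and 3.09% outside. Asprv1 had 5.35% and 5.74% outside, Lce1m 4.74% and 8.05%, Crct1 2.72% and 4.16%, Cnfn 2.63% and 5.72%, Sbsn 1.99% and 4.56%, and Ivl 1.02% and 2.21%, each time SspA+HDM and then mock. Ivl was the only member below the median gene in both sections. Pooled over the 7 genes the share was 3.74% in the SspA+HDM section and 6.42% in the mock section.

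**Figure D5:**
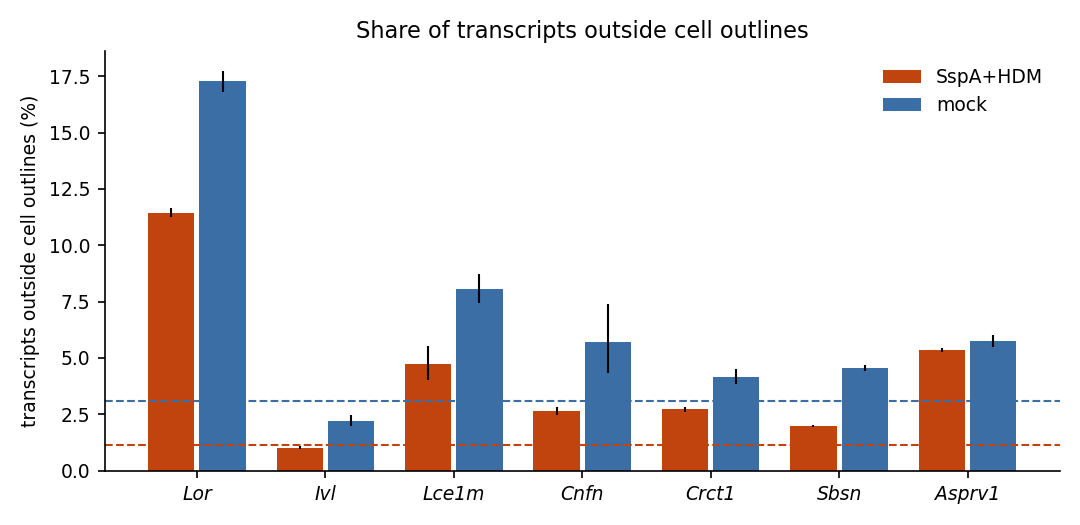
Percent of each gene's transcripts that lie outside cell outlines, SspA+HDM bars left of mock bars, with exact 95% intervals for counting error; dashed lines give the median gene of each section, 1.16% and 3.09%. Lor is highest at 11.4% and 17.3%, and Ivl is the only gene below both lines.

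Most of these transcripts lay on the outer side of the surface line. Of the Lor transcripts outside outlines, 93.4% in the SspA+HDM section and 90.6% in the mock section lay beyond the surface, and 43.0% and 39.5% were more than 100 µm beyond it. The median depth of all Lor transcripts outside outlines was -80.7 µm in the SspA+HDM section and -69.6 µm in the mock section. Among all transcripts outside outlines and more than 20 µm beyond the surface, the 7 genes made up 32.6% in the SspA+HDM section and 26.5% in the mock section. Among transcripts inside cells they made up 11.04% and 7.57%, and among those outside outlines on the tissue side 2.37% and 1.44%. The 3 most frequent genes beyond the surface were Calm4, Krt16 and Lor in the SspA+HDM section and Lor, Sbsn and Calm4 in the mock section. Outlines reached about 15 µm from a nucleus, so tissue farther than that from any nucleus was not outlined. Whether the transcripts beyond the surface lie in shed stratum corneum or had moved from elsewhere was not tested.

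Close to the surface line the share of Lor outside outlines was above that of other genes at the same depth. In the 20 µm just outside the surface line, 2.23% of Lor transcripts lay outside outlines in the SspA+HDM section and 13.6% in the mock section, against 1.12% and 8.04% of the transcripts of all genes other than the 7. Ivl was below those figures, at 0.570% and 2.77%, and so was Cnfn, at 0.553% and 0.752%, the second being 1 of 133 transcripts. In the first 20 µm on the tissue side, 0.159% of Lor in the SspA+HDM section and 0.114% in the mock section lay outside outlines, against 0.0430% and 0.0265% of the other genes. This was not so at every depth: between 50 and 20 µm beyond the line it was 65.9% for Lor and 66.1% for other genes in the SspA+HDM section, between 100 and 50 µm beyond it 99.03% and 99.3% in the mock section, and between 20 and 40 µm on the tissue side 0.507% and 0.602% in the mock section. The members that lay outermost in depth were thus not uniformly those with the most transcripts outside outlines.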

How the data were processed

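Per the labels, Xenium v1 with a mouse tissue atlas panel was run on 1 section per treatment. The deposited transcript files list each decoded transcript with a position, a cell and a quality score made by the authors' software, which is not given in the sources used here, per the file headers. Transcripts with a score of at least 20 were kept, control features left out. Strips were found by linking cells within 100 µm. Cells with at least 20 transcripts were clustered without the 7 members (30 principal components, 15 neighbours, Leiden resolution 1, leidenalg 0.10.2). No doublet caller was run. Depth was the distance to a line through the 2nd percentile of cell positions in 50-µm bins, and the border was the 5th percentile of depth of non-epithelial cells. Ratios have exact conditional binomial intervals, shares exact Clopper-Pearson intervals (scipy 1.17.1), at 95%. All 7 members are named, with the 3 panel genes most like each and the 3 highest and 3 lowest of the related list. Some of the genes most like a member are not reported here. Ratio and depth code was tested on simulated data. The members and lists were chosen with earlier results of these data known.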

Additional observations from a re-analysis of the deposited data

Results flagged for a closer look

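For 3 genes the SspA+HDM to mock ratio was above 1 in the surface clusters and below 1 in the follicle-marker clusters, and this difference was not tested, since there is 1 section per treatment. For Ivl the ratios were 1.32 and 0.336, which differ by 1.97 on the log2 scale. For Crct1 they were 1.73 and 0.734, a difference of 1.23. For Asprv1 they were 1.60 and 0.629, a difference of 1.34. The follicle-marker clusters differed in make-up between the sections: cluster 11 held 25.1% of these cells in the SspA+HDM section and 2.59% in the mock section, cluster 16 held 17.1% and 0.195%, and cluster 15 held 4.72% and 35.3%. Single-cluster ratios are given for the follicle-marker clusters in which all 3 genes were compared. Crct1 had ratios of 0.495 in cluster 7, 0.957 in cluster 13, 1.03 in cluster 18 and 1.09 in cluster 24. Asprv1 had 0.529, 1.02, 0.863 and 0.839 in the same order, and Ivl 0.170, 1.06, 0.370 and 1.14. All 3 genes were thus lower within cluster 7, and Ivl also within cluster 18. How far the make-up accounts for the lower ratios was not tested.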

How the results depend on the processing

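No paired analysis was possible because each treatment has 1 section. Of the comparisons of a main result with an alternative, the value stayed close in 57 and moved in 33; for the ratios of single genes it stayed close in 34 and moved in 85, beyond counting error; no value called 2-fold turned direction. The members at least 2-fold higher numbered 1, and 2 with a quality score of at least 30, 6 per mm of strip, 4 per segmented cell and 3 against mock strip 1 alone. Their median log2 ratio, 0.87, was 0.85 with a quality score of at least 30, 0.92 with transcripts outside outlines added, 0.48 over nuclei, 2.50 per mm, 1.11 per cell, 0.40 scaled to epithelial-cell transcripts, 0.85 against mock strip 2 and 0.81 without the 5 most abundant genes. Per mm 77.5% of all genes were at least 2-fold higher and 1.45% lower, and scaled to epithelial-cell transcripts 8.67% and 26.9%. Over all alternatives for the whole section the log2 ratio of Lce1m stayed between -3.30 and -1.20 and that of Cnfn between 2.98 and 5.09. Within the surface clusters the main values were -3.53 for Lce1m and 2.89 for Cnfn. Of the 21 pairs in depth order, 17 to 21 kept it in the SspA+HDM section and 18 to 21 in the mock section. Epithelial cells with at least 5 members made up 22.4% in the SspA+HDM section and 27.0% in the mock section; these were 16.9% and 18.04% with detection at 2 transcripts, 20.2% and 31.3% thinned to 100, and 13.6% and 6.21% over nuclei, so that the order of the sections turned over nuclei, and 28.6% in the mock section in cells with at least 40 transcripts. The pooled share outside outlines was 3.38% and 5.68% without a quality filter, 4.46% and 7.49% with a score of at least 30, 4.19% and 7.24% in strip 1 alone and 3.37% and 5.67% in strip 2 alone. The share of Crct1 in follicle-marker clusters was 12.5% and 33.8% at resolution 0.5, 15.5% and 40.8% at resolution 2, and 35.2% in the mock section with cells of at least 40 transcripts. Lce1m lay below the lowest mock window in 46.7% of 500-µm windows and in 8.33% of 250-µm windows; the lowest mock window itself dropped to 20 transcripts per mm there. Counting depth limits the Cnfn values of the mock section, which rest on 890 transcripts in cells.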
